A study of Mus musculus with 4 samples.

Results

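The genes of heme breakdown and export described here are Hmox1, Hmox2, Blvra, Blvrb, Flvcr1 and Abcg2, 6 of the 22730 genes in the deposited tables. They were chosen by name, and the set was put together after a splice junction of Blvrb had been seen to change between the genotypes. All values of Blvrb that compare the genotypes are therefore a description with no test, while the other 5 genes were tested. Their symbols matched 5 of the 6 in the deposited files, and Flvcr1 was found under its older symbol Mfsd7b through its RefSeq transcript. The 6 genes have 7 transcript rows of 28283 and 234 splice junctions of 1921627, of which 64 had a read.

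Fetal liver RNA was sequenced from 2 wild-type libraries (WT) and 2 hnRNP L -/- libraries (KO), named by genotype in the labels, to compare gene levels and splicing between them. hnRNP L is an RNA-binding splicing factor, and WT and KO are used as names for what the labels give. The submitters' mouse protocol names CD45.1 mice, the reporter Gt(ROSA)26Sortm4(ACTB-tdTomato,-EGFP)Luo, an LckCre transgene and C57BL/6, without saying which of these the embryos carried. No label gives the kind of deletion, the embryonic day or the litters, and the p-values rest on the spread of these 4 libraries, which may be technical in part. Values in each sentence follow the order WT replicate 1, WT replicate 2, KO replicate 1 and KO replicate 2, with levels in reads per 1000000 on TMM-scaled library sizes (CPM) unless RPKM, which also divides by transcript length, is named.

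Heme oxygenases open the heme ring, which releases iron and carbon monoxide and leaves biliverdin, and biliverdin reductases turn biliverdin into bilirubin. Hmox1 encodes the inducible oxygenase and Hmox2 the constitutive one. Blvra encodes the reductase of the adult type of biliverdin, and Blvrb a reductase of flavins and of the biliverdin isomer that prevails in the fetus. Flvcr1 encodes a membrane transporter grouped here with heme export, and Abcg2 an ATP-driven transporter that carries porphyrins out of cells. In fetal liver, red cell precursors make most of the heme, and macrophages take up expelled nuclei and damaged cells and break heme down.

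The sequences around the 4 exon junctions of Blvrb are shown because the values of the second of them differed most between the genotypes. Each holds the last 30 bases of the upstream exon in lower case and the first 30 bases of the downstream exon in capitals, 5′ to 3′, from the GENCODE transcript on GRCm38 (plus strand of chromosome 7).
Blvrb junction 1: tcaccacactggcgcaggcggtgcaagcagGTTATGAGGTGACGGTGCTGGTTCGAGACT
Blvrb junction 2: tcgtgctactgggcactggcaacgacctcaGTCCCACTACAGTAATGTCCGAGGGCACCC
Blvrb junction 3: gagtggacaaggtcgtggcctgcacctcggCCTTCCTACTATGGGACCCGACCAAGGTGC
Blvrb junction 4: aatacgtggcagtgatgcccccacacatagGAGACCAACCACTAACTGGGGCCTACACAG
The motif CACA, a core of the CA repeats that hnRNP L is known to bind, was searched on the transcript strand. It is in the windows of junctions 1 and 4 and not in those of junctions 2 and 3, beside 24.2% of 181281 coding junction windows of the same length in the annotation. A match is no evidence of binding, and intron sequence was not analysed here. Junction 2 joins exon 2 (165 nt) to exon 3 (90 nt), which are both wholly coding and whole multiples of 3 bases long.

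Hnrnpl, the targeted gene, stood at 458, 601, 279 and 268 CPM and fell in the KO libraries to 0.516-fold (log2 fold change -0.95, SE 0.16, edgeR quasi-likelihood adjusted p = 0.0115). The transcript was thus lower but still present in the libraries labelled hnRNP L -/-. Since no source used here gives the deleted exons, the loss of the deleted part was not checked. Mapped reads numbered 70020061, 111324295, 97490949 and 96260423, and the correlation of log2 CPM over genes was 0.987 for the WT pair, 0.986 for the KO pair and 0.971 to 0.974 across genotypes. By Xist and Ddx3y reads, KO replicate 2 was male and the remaining 3 libraries were female. The edgeR test called 3129 of 15036 genes at an adjusted p of 0.05, or 20.8%, with 11.4% of genes higher in KO and 9.43% lower.

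Among the 6 genes, the 2 reductases and the exporter Abcg2 had lower levels in both KO libraries, and Hmox1 and Flvcr1 had higher levels. Of the 5 tested genes, 1 (Blvra) passed the edgeR test, beside the 20.8% of all genes. For each of the 6 genes the KO and WT libraries did not overlap in CPM, which was also so for 65.2% of all tested genes.

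**Figure D1:**
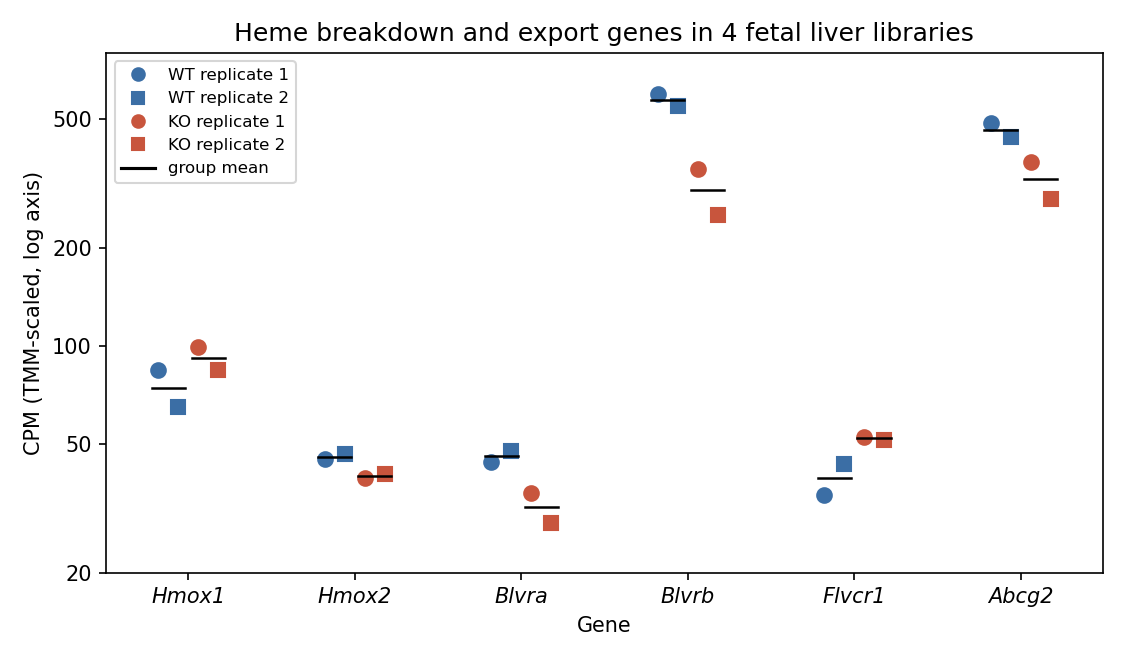
Level of the 6 genes in each library, in CPM on a log axis, with WT libraries in blue, KO libraries in red and each group's mean as a bar. Blvrb stood at 598 and 550 CPM in WT and 352 and 253 in KO, and the 2 Hmox2 groups lie close together.

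Of the oxygenases, Hmox1 (chromosome 8, 77617517 to 77624492, plus strand) stood at 84.1, 64.7, 99.0 and 84.2 CPM. Gene positions are printed as the authors' files have them, and no source used here names their build. KO replicate 2 and WT replicate 1 were nearly equal. The means were 74.4 ± 13.7 (SD, n = 2) in WT and 91.6 ± 10.5 in KO, and the difference did not pass the edgeR test (log2 fold change 0.30, SE 0.15, adjusted p = 0.188). Leaving out WT replicate 2 gave a log2 fold change of 0.13, and leaving out WT replicate 1 gave 0.50.

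Hmox2 (chromosome 16, 4726361 to 4766249, plus strand) had 44.8, 46.3, 39.2 and 40.4 CPM, with little spread inside each genotype. Its difference did not pass the edgeR test either (log2 fold change -0.20, SE 0.11, adjusted p = 0.223). In the authors' RPKM values, which are scaled to mapped reads, the libraries overlapped at 16.7, 18.7, 15.6 and 17.4. Per length, Hmox1 was 1.48, 1.10, 1.99 and 1.64 times as abundant as Hmox2.

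Hmox2 has 2 listed transcripts that differ in their first exon and share the rest. Reads from the upstream first exon to exon 2 numbered 39, 61, 54 and 62, and those from the inner first exon 0, 1, 0 and 0. Nearly every informative read in either genotype thus came from the upstream first exon, and the 2 transcript rows otherwise share their reads.

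Of the reductases, Blvra (chromosome 2, 126896393 to 126922820, plus strand) stood at 44.0, 47.3, 35.1 and 28.5 CPM. It fell from a mean of 45.6 ± 2.36 in WT to 31.8 ± 4.67 in KO, or 0.696-fold (log2 fold change -0.52, SE 0.14, edgeR adjusted p = 0.0345). The call did not hold without WT replicate 1 (adjusted p = 0.0731), WT replicate 2 (0.134) or KO replicate 2 (0.134), and held without KO replicate 1 (0.0222).

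Blvrb (chromosome 7, 28232997 to 28251000, plus strand) stood at 598, 550, 352 and 253 CPM, with means of 574 ± 33.6 in WT and 302 ± 70.5 in KO. Its KO level was 0.527-fold of WT (log2 fold change -0.92), the largest difference of the 6 genes. Blvrb exceeded Blvra per length by 18.4, 15.7, 13.6 and 12.0 times.

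Of the exporters, Flvcr1 (chromosome 1, 192829711 to 192850069, minus strand) stood at 34.7, 43.4, 52.5 and 51.3 CPM. The KO libraries were alike and above both WT libraries, which differed from each other. With means of 39.0 ± 6.12 in WT and 51.9 ± 0.836 in KO, the 1.33-fold difference did not pass the edgeR test (log2 fold change 0.41, SE 0.13, adjusted p = 0.0661).

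Abcg2 (chromosome 6, 58546666 to 58642445, plus strand) stood at 485, 440.4, 369 and 284 CPM, highest in WT replicate 1 and lowest in KO replicate 2. The means were 463 ± 31.8 in WT and 326 ± 60.0 in KO, and the 0.705-fold difference did not pass the edgeR test (log2 fold change -0.50, SE 0.16, adjusted p = 0.0631). Flvcr1 and Abcg2 did pass with a replicate block or with no filter on low counts, and Abcg2 with DESeq2 and limma voom. The file names give the WT and KO libraries shared numbers, but no label says that these pair the samples. Abcg2 was 23.0, 16.7, 11.5 and 9.07 times as abundant as Flvcr1 per length.

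Per length, the order of levels in WT was Blvrb with a mean RPKM of 319 (rank 102 of 22730 genes), Abcg2 with 89.3 (rank 346), Hmox1 with 22.6 (rank 1739), Blvra with 18.8 (rank 2125), Hmox2 with 17.7 (rank 2261) and Flvcr1 with 4.62 (rank 6543). In WT the RPKM values of Hmox1 (24.7 and 20.6), Blvra (17.4 and 20.2) and Hmox2 (16.7 and 18.7) followed each other closely. Those of Blvra and Hmox2 overlapped. In KO, Blvrb (178) and Abcg2 (66.9) still led, followed by Hmox1 (29.7), Hmox2 (16.5), Blvra (13.9) and Flvcr1 (6.52). Hmox2 and Blvra changed places, and their KO libraries did not overlap in RPKM (15.6 and 17.4 against 14.8 and 13.0).

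Markers of red cell precursors moved with the lower genes. Of 12 erythroid markers, 9 fell in the edgeR test and 0 rose, beside 9.43% and 11.4% of all tested genes. Their summed level was 20103, 20377, 13721 and 10620 CPM. The fallen markers numbered 4 when either of the WT libraries was left out, 10 without KO replicate 1 and 3 without KO replicate 2. The order of the libraries by this sum was nearly that of Blvrb and Abcg2: lowest in KO replicate 2, next in KO replicate 1. In bulk liver, fewer cells of a type and less RNA per cell cannot be told apart.

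Set against each 1000 CPM of the summed erythroid markers, Blvrb stood at 29.7, 27.0, 25.7 and 23.8 CPM, a KO to WT ratio of 0.872. On the same scale Abcg2 had 24.1, 21.6, 26.9 and 26.7 (ratio 1.17) and Blvra 2.19, 2.32, 2.56 and 2.68 (ratio 1.16). For both of these genes the KO to WT ratio went the opposite way to that in CPM. Hmox1, Hmox2 and Flvcr1 had ratios of 2.06, 1.48 and 2.25, so Hmox2, at 0.873-fold in CPM, went the opposite way too. These ratios are a description, and the part of the red cell markers in the level differences was not tested.

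Markers of other cell types differed too. Beside each list that follows, 11.4% of all tested genes rose and 9.43% fell in the edgeR test. Of 10 hepatocyte markers, 4 rose and 0 fell, and their sum was 51906, 37974, 79664 and 65660 CPM. Without WT replicate 2, 1 hepatocyte marker rose. Of 13 tested macrophage markers, 3 rose, 2 fell and 8 did not pass, with a sum of 625, 438, 448 and 348 CPM. The macrophage genes did not move one way: Emr1 (F4/80) had 112, 86.8, 46.3 and 40.9 CPM and fell, whereas Siglec1 had 7.44, 5.58, 17.7 and 11.7 CPM and rose. Without WT replicate 2, 0 macrophage markers rose and 4 fell, without KO replicate 1, 3 rose and 4 fell, and without KO replicate 2, 1 rose and 2 fell. No erythroid, hepatocyte or macrophage marker was at 0 in any library. Of the marker lists measured, the summed level that differed most was that of cardiac muscle, with 53.6, 205.4, 3.37 and 5.58 CPM (KO to WT ratio 0.0346). Of its 6 markers 6 fell, also with each library left out in turn, and 1 was at 0 in at least 1 library. Of 6 markers each, 4 megakaryocyte, 4 granulocyte and 4 endothelial markers rose, with KO to WT ratios of their sums of 1.62, 1.92 and 1.58. With single libraries left out, 2 to 4, 3 to 5 and 2 to 4 of them rose. The part of these cell types in the levels of Hmox1 and the other genes was not tested.

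Reads across the known junctions gave a second view of the levels, from part of the same reads. Scaled to 1000000 known junction reads of the library, known junction reads were 38.0 ± 7.48 in WT and 53.3 ± 4.90 in KO for Hmox1 (KO to WT ratio 1.40) and 35.1 ± 2.58 and 53.2 ± 1.29 for Flvcr1 (ratio 1.52). For Blvrb they were 911 ± 108 and 555 ± 169 (ratio 0.610). The ratios of Abcg2, Blvra and Hmox2 were 0.758, 0.783 and 0.998, so 5 genes differed in the direction of their CPM and Hmox2 was nearly equal.

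Within Blvrb, the junctions did not move together. Junction 2 (chromosome 7, from 28244439 to 28244582, which are the exon bases it joins) had 30, 96, 181 and 116 reads. Junction 1 had 1607, 2173, 1689 and 895 reads, junction 3 had 2319, 3260, 1993 and 1370, and junction 4 had 858, 1668, 964 and 645. Junction 2 thus had far fewer reads than its neighbours in each library, and it alone of the 4 had more reads on that scale in both KO libraries.

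The share of junction 2 in the known junction reads of Blvrb was 0.623% (95% Wilson interval 0.437 to 0.888) and 1.33% (1.09 to 1.63) in WT, and 3.75% (3.25 to 4.32) and 3.83% (3.21 to 4.58) in KO. These intervals cover counting error only, and they are too narrow where reads are PCR copies of 1 molecule. They are no test between libraries, and Blvrb was chosen after a junction was seen to change. The KO shares were alike, while the WT shares differed from each other. The mean share was 0.979 ± 0.503% in WT and 3.79 ± 0.0592% in KO, a ratio of 3.87. As a share of all Blvrb junction reads, putative ones included, the ratio was 3.88, and 6.09 without WT replicate 2.

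**Figure D2:**
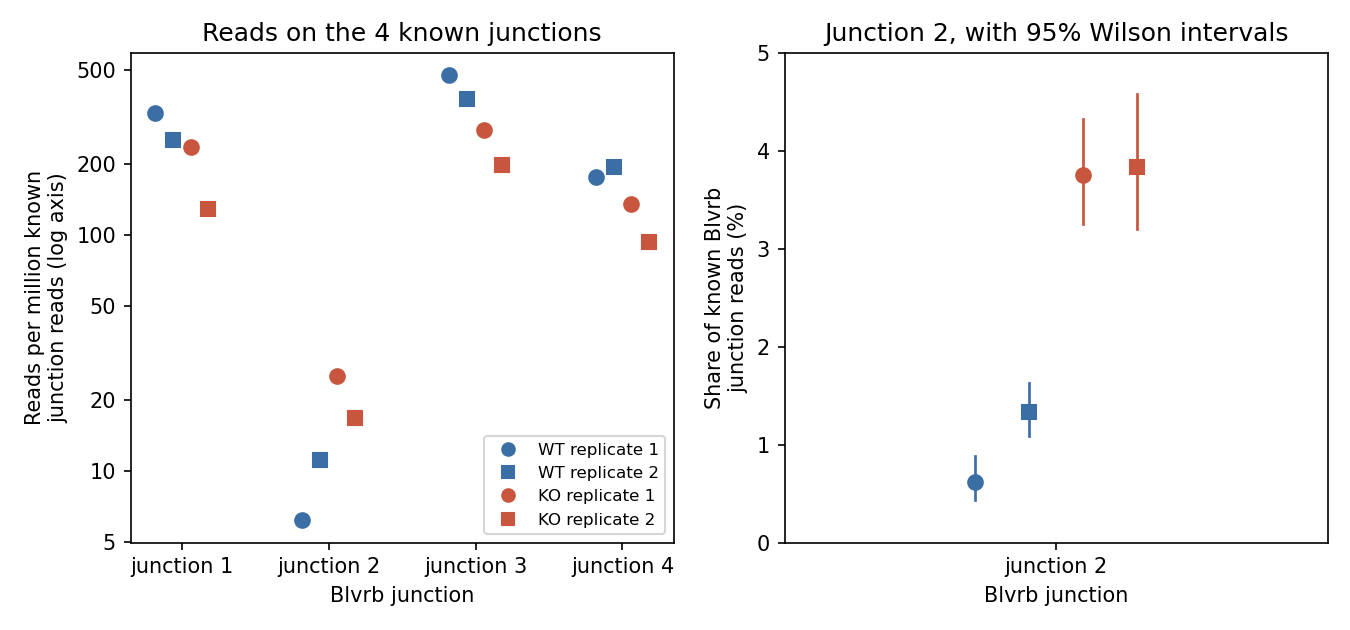
Left, reads on each known Blvrb junction per 1000000 known junction reads of the library, on a log axis. Right, junction 2 as a percent of the known Blvrb junction reads with 95% Wilson intervals as vertical lines, where KO libraries (red, 3.75 and 3.83) lie above WT libraries (blue, 0.623 and 1.33).

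Usage of a junction, its reads against those of the gene's other junctions in the edgeR model, differed by 1.97 on the log2 scale for junction 2. The same difference was 0.05 for junction 1, -0.13 for junction 3 and 0.02 for junction 4. Per 1000000 known junction reads, junction 2 was at 6.15, 11.1, 25.3 and 16.7, a KO to WT ratio of 2.43, whereas junctions 1, 3 and 4 had ratios of 0.628, 0.558 and 0.617. Reads of junction 2 made up 1.87%, 4.42%, 10.7% and 13.0% of those of junction 1. A transcript that holds exons 1 to 3 would add to both junctions.

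Few reads skipped an exon next to junction 2. The junction that leaves out exon 2 had 1, 0, 0 and 0 reads, that which leaves out exon 3 had 5, 5, 3 and 1, and that which leaves out both had 4, 5, 0 and 0. All putative junctions of Blvrb took 24 reads, or 0.121% of its junction reads. Reads inside the intron were not analysed here.

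Junction 2 was low in WT compared with junctions of other genes. Its WT reads were 4.00% of the median known junction of Blvrb. Of 17343 known junctions in genes with at least 4 such junctions and a median of at least 100 WT reads, 312, or 1.80%, were as low. Among the 2885 whose ends lie at most 200 nt apart, as the 143 nt of junction 2, 38 were as low, or 1.32%. Only known junctions with a read in any library were counted, and unread ones, which would be as low, were left out. The WT reads are part of the values by which Blvrb was chosen, so these shares are a description only. The part of the short span in the low count was not tested. No source used here gives the authors' rules for counting reads across junctions.

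Blvrb lies on the same chromosome as the targeted gene and ends 1.34 Mb before Hnrnpl. Gpi1 and Haus5, which were chosen after their values were seen, also lie on chromosome 7, at 5.38 and 1.83 Mb from Hnrnpl. The part of a linked chromosome segment of another strain, and of sequence differences in it, was not tested.

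In the other 5 genes, 41 junctions were tested and 0 were called by diffSpliceDGE of edgeR, with 0 at an unadjusted p under 0.05 (2597 of 105434 over all genes) and 0 called by the likelihood ratio test of edgeR. Over all genes 4 of 105434 junctions, or 0.00379%, were called, and 0.000948% were called higher in KO. The smallest p within each gene belonged to junction 11 of Abcg2 (log2 usage difference 1.04), junction 3 of Blvra (-0.47), junction 1 of Flvcr1 (-0.52), junction 3 of Hmox2 (-0.31) and junction 4 of Hmox1 (-0.20).

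**Figure D3:**
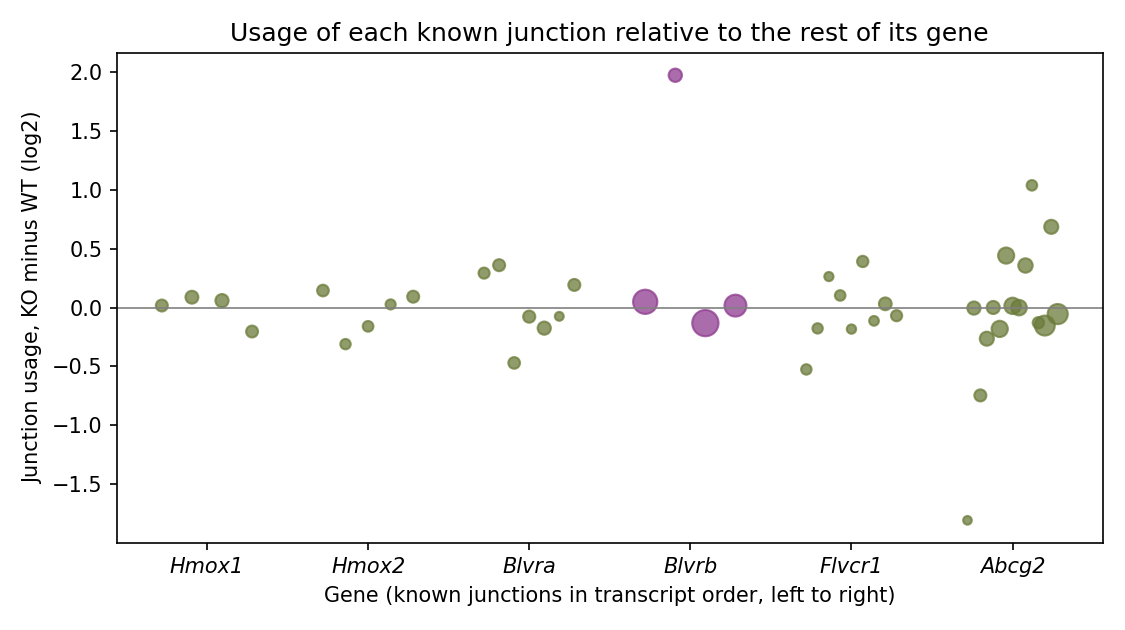
Difference in usage of each known junction between KO and WT on the log2 scale, by gene and in transcript order, with a larger point for more reads. Junction 2 of Blvrb (purple) lies at 1.97, and the junctions of Abcg2 range from -1.80 to 1.04.

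Junction 11 of Abcg2 had 4, 46, 37 and 35 reads, lowest in WT replicate 1, and its usage difference ranged from 0.30 to 3.04 on the log2 scale when single libraries were left out. Junction 1 of Abcg2, which leads out of the first listed exon, had 11, 16, 5 and 1 reads against 88, 139, 66 and 118 at junction 2. Its reads were 12.5%, 11.5%, 7.58% and 0.848% of those of junction 2, from few reads in KO. Its usage difference of -1.80 was not called (edgeR adjusted p = 0.999994). Reads from the first listed exon of Abcg2 into exon 2 were thus far fewer than reads out of exon 2 in each library. Junctions from other first exons of Abcg2 were not analysed here.

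RefSeq's promoter table (GRCm38.p6) matched 5 of the 6 genes and did not list Hmox1. The 250 bases before the start are shown for Blvrb and Flvcr1, the genes with the largest difference down and up, with motifs in capitals. The motifs searched on both strands were GATAA, bound by GATA factors, CACCC, bound by Klf1, and TGACNNNGC, the core bound by Nrf2 and Bach1 with small Maf proteins. The window at the first listed start of Blvrb (chr7:27447728-27447977, plus strand) holds CACCC as its reverse complement, and the Flvcr1 window (chr1:191026191-191026440, minus strand) holds TGACNNNGC.
Blvrb promoter: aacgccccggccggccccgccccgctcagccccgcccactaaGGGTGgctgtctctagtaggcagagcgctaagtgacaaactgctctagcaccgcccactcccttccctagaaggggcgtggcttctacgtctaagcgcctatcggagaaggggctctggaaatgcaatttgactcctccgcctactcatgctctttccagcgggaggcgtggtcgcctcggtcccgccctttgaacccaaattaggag
Flvcr1 promoter: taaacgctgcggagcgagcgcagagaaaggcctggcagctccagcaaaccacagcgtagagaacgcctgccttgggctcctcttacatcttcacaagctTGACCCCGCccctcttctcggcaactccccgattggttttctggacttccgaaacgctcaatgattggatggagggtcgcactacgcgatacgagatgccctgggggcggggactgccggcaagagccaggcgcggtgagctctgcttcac
In all 32851 promoter windows of the table, GATAA was in 22.6%, CACCC in 52.0% and TGACNNNGC in 10.2%. TGACNNNGC was also in the window of Blvra, CACCC in 2 of 3 windows of Abcg2, and GATAA in 1 of 3 windows of Abcg2 and 1 of 3 of Hmox2. These matches are descriptions and say nothing of binding.

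The genes most like each member were those with the smallest largest gap in mean-centred log2 CPM over the 4 libraries. They were Spns1 and Lman1 for Hmox1 (gaps of 0.03 and 0.03), Tatdn1 and B230208H17Rik for Hmox2 (0.01 and 0.01) and Cdc45 and Dnajc15 for Blvra (0.01 and 0.01). For Blvrb they were Fam55b and Slc30a10 (0.02 and 0.04), for Flvcr1 Abcc5 and Nolc1 (0.03 and 0.03), and for Abcg2 2410015M20Rik and Ypel3 (0.02 and 0.02). With 4 libraries many genes lie this near.

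Genes of heme synthesis had lower levels, where 9.43% of all tested genes fell and 11.4% rose. Of 14 tested, 9 fell and 0 rose in the edgeR test, with a median log2 fold change of -0.70 beside 0.02 over all genes, and 3 fell when any library but KO replicate 1 was left out. Urod, which makes coproporphyrinogen, had 989.5, 983, 545 and 413 CPM and fell to 0.486-fold (adjusted p = 0.0111), and Uros, the enzyme before it, fell to 0.547-fold (adjusted p = 0.0119). The erythroid markers above fell in the same libraries.

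Of 10 tested genes of heme uptake, binding and transport, 3 rose and 1 fell (median 0.59), beside 11.4% and 9.43% of all tested genes. Lrp1, the receptor of heme bound to hemopexin, rose 1.79-fold (edgeR adjusted p = 0.00759), and Flvcr2, the paralog of Flvcr1, rose 1.70-fold (0.0181). Hebp1, a heme-binding protein, fell to 0.684-fold (0.0219). Without WT replicate 2, 1 of these genes rose and 0 fell, and the median was 0.30. Without KO replicate 1 the median was 0.21, and of the 4 fits with a library left out this was the one that called Hebp1 lower.

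Electron donors and genes of bilirubin disposal rose in 5 of 6 cases (median 1.00) and 0 fell, beside 11.4% and 9.43% of all tested genes. Slco1b2, a liver uptake transporter of bilirubin, rose 2.41-fold (edgeR adjusted p = 0.0302) from 1.94 and 1.29 to 4.46 and 3.25 CPM. Gstm1, a glutathione transferase, rose 2.28-fold (0.0114), and Por, which passes electrons to the heme oxygenases, rose 1.99-fold. Ugt1a1, which joins bilirubin to glucuronic acid, rose 2.01-fold, and Abcc2, which exports the product into bile, 1.73-fold. With 1 library left out, 3 rose without WT replicate 2 or KO replicate 1. Most of these genes are active in hepatocytes, whose markers also had a higher sum, and the part of hepatocytes was not tested.

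Of 11 genes of iron release and storage, 5 fell and 1 rose (median -0.35), beside 9.43% and 11.4% of all tested genes. Tfrc, the transferrin receptor, fell to 0.519-fold (edgeR adjusted p = 0.0205) and Ncoa4, which directs ferritin to breakdown, to 0.541-fold (0.0110). Aco1, an iron-sensing RNA-binding protein, rose 1.36-fold (0.0410). Leaving out WT replicate 1 or KO replicate 2 left 1 fallen gene and leaving out WT replicate 2 left 2, with 0 risen in these 3 cases.

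Of 11 regulators of Hmox1, 1 rose and 2 fell (median -0.20), beside 11.4% and 9.43% of all tested genes. Bach1, its repressor, stood at 119, 122, 108 and 101 CPM, and Nfe2l2 (Nrf2), its activator, at 73.7, 105, 105 and 97.8 CPM, and neither passed the edgeR test (adjusted p = 0.203 and 0.462). Small Maf partners of both went in opposite directions: Maff rose 2.00-fold (0.0249) and Mafk fell to 0.576-fold (0.00808). Atf4, a stress-response activator, fell to 0.724-fold (0.0460). With any 1 library left out 1 fell, and 0 rose without WT replicate 1 or KO replicate 2.

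Of 10 other targets of Nrf2 and Bach1, 2 rose and 1 fell (median 0.10), and 0 passed when any 1 library was left out. Over all tested genes, 11.4% rose and 9.43% fell. Slc7a11, the cystine importer, rose 1.79-fold (edgeR adjusted p = 0.0481) and Sqstm1 1.34-fold (0.0335). Gclc, an enzyme of glutathione synthesis, fell to 0.741-fold (0.0406).

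**Figure D4:**
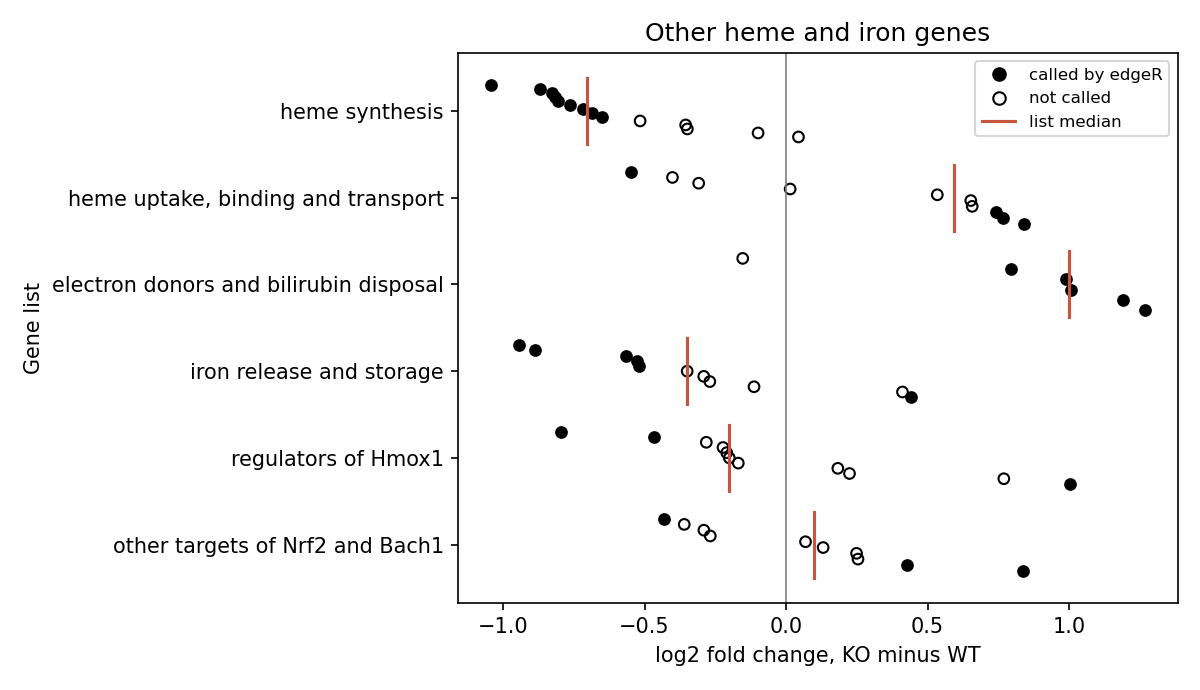
Log2 fold change (KO minus WT) of each gene in 6 lists of heme and iron genes, with filled points for genes called by edgeR, open points for those not called and a red bar at each list's median. Heme synthesis has its median at -0.70, and electron donors and bilirubin disposal at 1.00.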

How the data were processed

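RNA-seq libraries of fetal liver cells were used, 2 with a WT label and 2 with a KO label. Per the file headers, the authors deposited raw read counts per RefSeq transcript (mapping quality of at least 10, score clear zone 5, minimum score 0), RPKM values from mapped reads, and reads per nucleotide, a coverage signal that was not used. A second deposited table per library gives counts of reads across junctions. No source used here gives the aligner, the genome build or whether counting was by strand; without strand, reads of overlapping and antisense genes can be mixed.

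The 6 genes and all lists were chosen with earlier results of these data known. For each gene the transcript with most reads was kept (33849311, 57085873, 47869768 and 48239909 reads per library). Levels were tested by quasi-likelihood in edgeR 4.0.16 (R 4.3.3), with TMM, filterByExpr and Benjamini-Hochberg adjustment over 15036 genes at a threshold of 0.05. For junction usage, diffSpliceDGE of edgeR took 105434 junctions that had 10 or more reads in all, in genes with 2 or more of them (4875332, 8624429, 7150406 and 6941562 known junction reads). Both tests were also run on simulated counts with a fixed spread, and their power for the junctions of these genes was not tested. Alternatives were DESeq2 1.42.0, limma 3.58.1 voom, no filter, summed transcripts, known junctions alone, a replicate block and each library left out. The edgeR tests were not rerun with another scaling. Scaled to mapped reads, the log2 fold change of Blvrb was -0.84. A likelihood ratio test was added after the data were seen. Genes were named by rule: the 6 genes, every known Blvrb junction with at least 10 reads, the junction with the smallest p of each other gene, the 2 largest called rises and falls of each list and the 2 nearest patterns per gene. Por, Ugt1a1, Abcc2, Bach1, Nfe2l2, Emr1, Siglec1, Gpi1, Haus5 and further Abcg2 and Hmox2 junctions were named after their values were seen. Promoter sequences come from RefSeq, matched by gene symbol, and exon sequences from GENCODE, matched by transcript, both on GRCm38. Every intron span of the matched transcripts was equal in the files.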

Additional observations from a re-analysis of the deposited data

How the results depend on the processing

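With no filter on low counts, Flvcr1 (log2 fold change 0.42, edgeR adjusted p = 0.0212) and Abcg2 (-0.50, 0.0201) passed, so that 1 of the tested genes was higher and 2 were lower. With a replicate block they passed too (Flvcr1 0.42, adjusted p = 0.0336; Abcg2 -0.52, 0.0178; 1 higher and 2 lower), and over all genes 2343 rose and 2000 fell. The shared numbers come from file names, and with 2 pairs the correlation of same-numbered deviations, 0.136, does not show that they pair the samples. DESeq2 (Abcg2 -0.51, adjusted p = 0.0102) and limma voom (-0.52, 0.0485) called 2 of the genes lower each.

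Leaving out single libraries gave 647 to 1296 higher and 334 to 1177 lower genes, 0 to 2 lower genes among those tested here, and 5 to 9 higher and 5 to 18 lower genes over the pathway lists. The log2 fold change ranged from -0.68 to -0.38 for Blvra, -1.19 to -0.70 for Blvrb, -0.71 to -0.33 for Abcg2, 0.26 to 0.58 for Flvcr1, 0.13 to 0.50 for Hmox1 and -0.22 to -0.17 for Hmox2. Of the 16 pathway genes named by rule, the calls of Urod, Uros, Lrp1, Gstm1, Ncoa4 and Mafk held in each case, and 10 were lost in at least 1.

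For junctions, 1 to 5 were called over all genes with a library left out, 2 among known junctions alone and 10 by the likelihood ratio test. The usage difference of Blvrb junction 2 ranged from 1.5 to 2.60 (log2) and the ratio of its shares of all Blvrb junction reads from 2.85 to 6.09. That of junction 4 ranged from -0.18 (without WT replicate 1) to 0.20 (without WT replicate 2), and that of junction 1 from -0.11 (without KO replicate 1) to 0.13 (without KO replicate 2). The cause of these changes was not tested. Abcg2 junction 1 had 33 reads in all, and what change could be called at that depth was not tested.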
